A study of Rattus norvegicus with 23 samples.

Results

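The mitochondrial solute carriers are the proteins of the Slc25a gene symbols, and their transcripts were measured by RNA sequencing of lung pieces from male rats. They were taken as the protein-coding genes whose symbol starts with Slc25a, which gave 44 of the 19249 genes in the deposited table. The rats breathed eucalyptus wood smoke at a low or a high concentration, or filtered air, over 2 weeks, with 4 days of exposure, a break of 3 days and 3 further days. Smoke was set by a target of 10 ppm carbon monoxide in the low smoke chamber and 20 ppm in the high smoke chamber. The groups held 7 libraries for air, 8 for low smoke and 7 for high smoke, and each library came from 1 rat. The labels give no strain, age or genetic modification for any group. Each library came from a piece of whole lung with all of its cell types, so a lower value in fewer cells of a type and a lower value from less RNA per cell cannot be told apart.

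Most mitochondrial carriers sit in the inner membrane of the mitochondrion and pass metabolites, cofactors and nucleotides between the matrix and the cytosol, most of them by exchanging one molecule for another. They are built from a repeated sequence module and are imported by a dedicated translocase after synthesis in the cytosol. Together they connect the citric acid cycle, oxidative phosphorylation, fatty acid synthesis, urea cycle intermediates, heme synthesis and folate metabolism to the rest of the cell. In the lung, alveolar type 2 cells export citrate for the lipids of surfactant, and wood smoke carries polycyclic aromatic hydrocarbons that activate the aryl hydrocarbon receptor.

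Depth was 8484131 to 12055512 read equivalents per library, and values are normalized counts, which were scaled between libraries and not for transcript length. Levels of different genes are therefore not ranked against each other as molecules. Along the first principal component of all genes (19.7% of the variance) the scores were 36.5 to 51.5 in high smoke replicates 1, 3 and 7, and 0.3 to 8.77 in the other 4 high smoke libraries. Low smoke libraries scored -12.7 to -1.81 and air libraries -21.6 to -0.29. Results are therefore given with and without these 3 libraries.

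A carrier rose or fell where its adjusted p was below 0.05 in limma, a linear model over all genes whose p-values were adjusted by Benjamini-Hochberg. Of the 44 carriers, 38 averaged at least 10 normalized counts and were tested. In high smoke against air, 5 of the 38 carriers passed (13.2%), against 16.3% of all 14414 genes tested. Slc25a1 and Slc25a32 rose, which is 5.26% of the carriers, against 9.21% of all genes that rose. Slc25a13, Slc25a29 and Slc25a36 fell, which is 7.89% of the carriers, against 7.05% of all genes that fell. The shares were thus near those of all genes, and the median log2 change of the 38 was -0.03, against -0.002 over all genes tested. No carrier had high smoke and air groups that did not overlap, against 1.87% of all genes. Low smoke against air gave no call, and high smoke against low smoke gave 2 rises, Slc25a32 and Slc25a38.

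The 6 carriers that passed in any comparison changed by less than 2-fold. The carriers with the smallest mean of these 6 were Slc25a29 and Slc25a13, and both fell. RefSeq promoters on the rat build GRCr8, from 250 bases before to 50 bases after the start of the gene, were found for 37 of the 44 carriers and for 4 of these 6. They are shown because these carriers passed the threshold. Capitals mark GCGTG on either strand, the core of the xenobiotic response element that the aryl hydrocarbon receptor binds, and CCGGAAG on either strand, the core bound by ETS factors. Bases read 5′ to 3′ on the strand of the gene.
Slc25a1, chr11:96559804-96560103, plus strand: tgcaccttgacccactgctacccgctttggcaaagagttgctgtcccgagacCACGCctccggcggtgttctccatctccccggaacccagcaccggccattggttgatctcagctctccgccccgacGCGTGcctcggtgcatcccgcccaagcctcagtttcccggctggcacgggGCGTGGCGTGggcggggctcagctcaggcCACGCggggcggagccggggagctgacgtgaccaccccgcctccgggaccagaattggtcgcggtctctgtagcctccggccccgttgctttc
Slc25a13, chr4:35328311-35328610, minus strand: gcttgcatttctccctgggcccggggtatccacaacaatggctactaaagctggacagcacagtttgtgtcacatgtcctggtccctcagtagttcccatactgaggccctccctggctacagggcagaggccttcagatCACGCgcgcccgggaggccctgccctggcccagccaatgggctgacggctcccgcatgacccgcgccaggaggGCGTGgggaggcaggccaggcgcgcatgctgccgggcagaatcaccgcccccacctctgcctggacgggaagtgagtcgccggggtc
Slc25a29, chr6:133517148-133517447, minus strand: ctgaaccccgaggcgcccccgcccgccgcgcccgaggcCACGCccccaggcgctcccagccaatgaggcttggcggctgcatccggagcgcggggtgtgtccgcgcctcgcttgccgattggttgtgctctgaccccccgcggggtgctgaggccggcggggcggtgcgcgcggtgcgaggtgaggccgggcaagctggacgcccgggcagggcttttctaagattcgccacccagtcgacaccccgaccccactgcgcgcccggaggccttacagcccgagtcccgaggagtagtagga
Slc25a38, chr8:128712930-128713229, plus strand: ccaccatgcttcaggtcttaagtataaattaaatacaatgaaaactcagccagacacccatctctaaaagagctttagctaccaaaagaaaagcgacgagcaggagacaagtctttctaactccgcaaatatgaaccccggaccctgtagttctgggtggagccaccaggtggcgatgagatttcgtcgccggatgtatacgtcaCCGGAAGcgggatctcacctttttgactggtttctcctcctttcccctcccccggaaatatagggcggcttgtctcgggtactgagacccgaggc
The Slc25a1 promoter held 5 GCGTG matches, whose first bases stood at -198, -122, -72, -67 and -43 from the start site. The Slc25a13 promoter held 2, at -110 and -37, and the Slc25a29 promoter held 1, at -212. The Slc25a38 promoter held no GCGTG and 1 CCGGAAG, at -45. The marked matches did not overlap each other, and the Slc25a1 match at -67 overlapped a GC box.

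GCGTG stood in 21 of the 39 promoters of carriers (53.8%), against 29.7% of all 33469 promoters of the same length. CCGGAAG stood in 6 of them (15.4%), against 8.74% of all promoters. Of the other motifs searched on both strands, the CCAAT box, CCAAT, stood in 21 carrier promoters, against 37.5% of all promoters. The GC box, GGGCGG, stood in 28 (71.8%), against 33.1% of all promoters. The antioxidant response element core, TGACNNNGC, stood in 5 (12.8%), against 12.1% of all promoters. The core of NRF1 sites, which is GCGCA joined to its reverse complement, stood in none, against 0.852% of all promoters. Carrier promoters had a median G and C content of 60.3%, against 51.7% of all promoters. The 39 promoters belonged to 37 carriers, because Slc25a43 and Slc25a48 had more than 1 entry. The entries of Slc25a43 overlap and share their GCGTG, TGACNNNGC and GGGCGG matches, so these matches are counted more than once. A match is a stretch of letters and not a measured binding site.

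Among carriers of carboxylates and acylcarnitine, Slc25a1, the citrate carrier, rose in high smoke. It lies at chr11:87204175-87207265 on the plus strand of the build rn6. Air libraries 1 to 7 had 318.8, 375.8, 382.4, 303.6, 291.1, 360.4 and 316.6 normalized counts of Slc25a1. Low smoke libraries ranged from 328.4 to 407.2 with a median of 360.9, and high smoke libraries 1 to 7 had 458.6, 392.1, 416.4, 444.6, 365.7, 330.3 and 477.9. In high smoke, 5 of the 7 libraries exceeded every air library, and the 2 groups overlapped. Slc25a1 averaged 412 ± 53.0 in high smoke and 336 ± 36.7 in air (SD, n = 7 each). The log2 change was 0.29 with a standard error of 0.08, which is 1.23-fold, and the limma adjusted p was 0.0185. Its call ended without high smoke replicate 7, at an adjusted p of 0.0507, and when library totals were made equal, at 0.0697. Without high smoke replicates 1, 3 and 7 the log2 change was 0.19 and the adjusted p 0.357.

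Slc25a20, the carnitine and acylcarnitine carrier that brings fatty acids into the matrix, had a log2 change of 0.27 in high smoke against air, with an adjusted p of 0.08. It passed without air replicate 3 or high smoke replicate 4, at adjusted p-values of 0.0311 and 0.0275. Slc25a10, the dicarboxylate carrier, had -0.32, and its adjusted p was 0.211. Slc25a11, the carrier that exchanges oxoglutarate for malate in the malate-aspartate shuttle, had -0.06 and an adjusted p of 0.697. Only Slc25a1 of the 4 tested in this group passed. Slc25a21, the oxodicarboxylate carrier, was under the level needed for testing.

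The enzymes around the citrate carrier were mixed in high smoke against air. Acly, the ATP citrate lyase that splits exported citrate in the cytosol, rose by 0.39 (1.31-fold), with an adjusted p of 0.0215, and without high smoke replicates 1, 3 and 7 it had 0.23 and 0.381. Me1, the cytosolic malic enzyme, had 639 to 1190 normalized counts in high smoke and 780.5 to 1297 in air. Me1 fell by 0.44 on the log2 scale, with an adjusted p of 0.00965, and without those 3 libraries its log2 change was -0.35 and its adjusted p 0.197. Of the 5 citrate export enzymes, Cs, Acaca and Fasn did not pass. Of the 8 markers of alveolar type 2 cells, Sftpc, Sftpd and Napsa rose in the same comparison, where 9.21% of all genes rose, and 1 of the 8 still passed without those 3 libraries. The other 5 did not pass, with log2 changes of -0.21 for Abca3 to 0.16 for Lamp3. The summed level of the 8 was 226430 to 295570 in high smoke and 184450 to 234230 in air. That sum averaged 252800 in high smoke, where Sftpc alone averaged 106600 and Sftpa1 64716. None of the 8 was at 0 in every library of a group. The part of these cells in the Slc25a1 and Acly results was not tested.

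**Figure D1:**
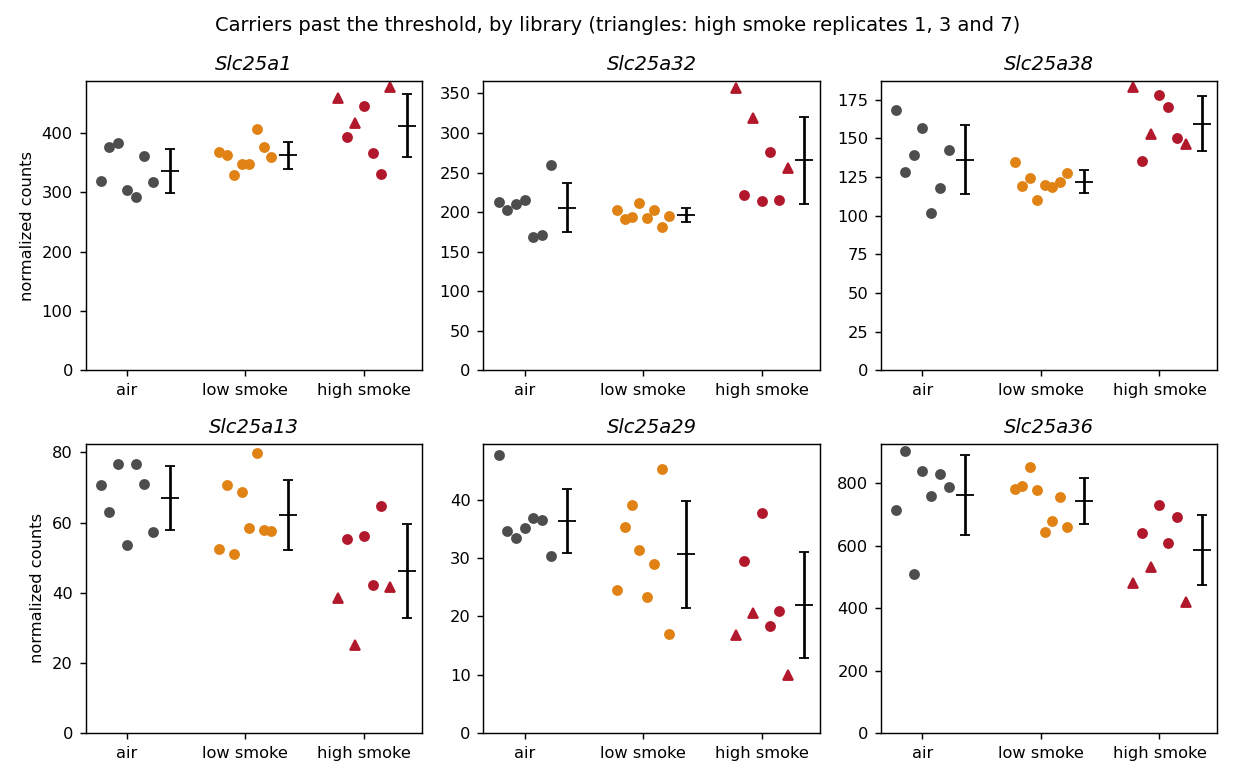
Normalized counts (y axis, from 0) of the 6 carriers that passed the threshold in any comparison, for each air, low smoke and high smoke library (x axis). Points are libraries, triangles are high smoke replicates 1, 3 and 7, and the bars give the mean and SD of 7, 8 and 7 libraries. Slc25a1 in high smoke sat above every air library in 5 of 7 libraries, and Slc25a38 and Slc25a32 in high smoke sat above every low smoke library.

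Among carriers of cofactors and other nucleotides, Slc25a32 rose and Slc25a36 fell of the 9 tested. Slc25a32, the carrier for folate and flavin adenine dinucleotide, lies at chr7:77987212-78004976 on the minus strand of rn6. Its normalized counts were 168.5 to 259.3 with a median of 210.7 in air, 181.6 to 211.9 with a median of 194.2 in low smoke, and 214.1 to 356.3 with a median of 256.3 in high smoke. The highest high smoke values were 356.3 and 318.8 in replicates 1 and 3, and every high smoke library exceeded every low smoke library. Against air, Slc25a32 rose by 0.35 on the log2 scale (1.28-fold, standard error 0.11, adjusted p 0.0287). Against low smoke it rose by 0.41 (1.33-fold, standard error 0.11, adjusted p 0.0284). The call against air ended without air replicate 5 or 6 (adjusted p 0.0609 and 0.0653), without high smoke replicate 1 or 3 (0.0799 and 0.0756), and when library totals were made equal (0.0614). Without high smoke replicates 1, 3 and 7 the log2 change was 0.18 against air and 0.23 against low smoke, with adjusted p-values of 0.48 and 0.71.

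Slc25a36, a carrier of pyrimidine nucleotides that serves the mitochondrial genome, lies at chr8:104966124-104995726 on the minus strand of rn6. Its normalized counts were 508.3 to 903.4 with a median of 787.9 in air, 645.7 to 854.2 with a median of 767.2 in low smoke, and 421.4 to 730.5 with a median of 609.8 in high smoke. Slc25a36 fell by 0.38 against air (0.766-fold, standard error 0.12, adjusted p 0.0301), and against low smoke it had a log2 change of -0.36 and an adjusted p of 0.0586. That second comparison passed without air replicate 3, high smoke replicate 4 or high smoke replicate 6, at 0.0273, 0.025 and 0.0331. It also passed with equal library totals (0.042), with equal upper quartiles (0.0482), in a fit of only the 2 groups (0.0475) and when only genes averaging 50 or more were tested (0.04996). In 2 of the 7 high smoke libraries its value was below every air library, and air replicate 3, at 508.3, was the lowest air library. Its call ended without any one of air replicates 2, 4 and 6 (adjusted p 0.0678, 0.0642 and 0.0595) and without any one of high smoke replicates 1, 3 and 7 (0.0766, 0.0646 and 0.081). The log2 change was -0.17 without all 3 of those high smoke libraries, with an adjusted p of 0.542. Its counts were not whole numbers of reads in any of the 22 libraries, for a reason that was not tested.

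The remaining cofactor carriers did not pass in any comparison. Slc25a51, which brings NAD into mitochondria, had the most variable values of the family. Its normalized counts were 23.2 to 365.8 with a median of 170.8 in air, 179.8 to 498 with a median of 314.3 in low smoke, and 26.8 to 1270 with a median of 528.1 in high smoke. High smoke replicate 5 had 26.8 while replicate 1 had 1270, so the high smoke group reached from near the lowest air value to above every air value. Its log2 change was 1.58 in high smoke against air, with a standard error of 0.62 and an adjusted p of 0.08. In low smoke against air it was 1.43, with an adjusted p of 0.724. The within-group SD of Slc25a51 on the log2 scale was 1.31, at the 99.4th percentile of all genes tested. It passed in high smoke against air without air replicate 7, at an adjusted p of 0.0431. It also passed without high smoke replicate 5, at a log2 change of 2.19 and an adjusted p of 0.00356. Leaving out high smoke replicates 1, 3 and 7 together gave a log2 change of 0.64 against air and an adjusted p of 0.72.

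The table also lists Slc25a52, on chromosome 14, as a transcribed processed pseudogene; the human copies of Slc25a51 and Slc25a52 are close relatives. The counts of Slc25a51 were whole reads in 4 of the 22 libraries, and those of Slc25a52 in 3. The share of their summed counts that fell to Slc25a51 was 7.94% to 91.4% in high smoke and 15.2% to 71.6% in air. Their sum was 338 to 1389 in high smoke and 153 to 668 in air. Reads of these genes may have been divided between them, so the value of Slc25a51 alone is uncertain.

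**Figure D2:**
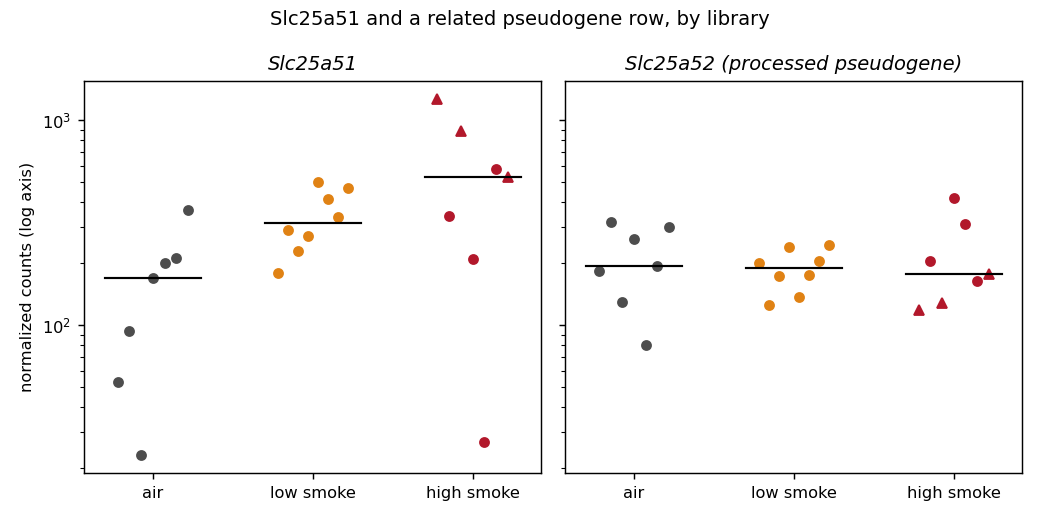
Normalized counts (y axis, log scale) of Slc25a51 and of the pseudogene Slc25a52 in each air, low smoke and high smoke library (x axis), with a line at each group median. Triangles mark high smoke replicates 1, 3 and 7, and Slc25a51 ran from 26.8 to 1270 within high smoke.

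Among carriers of amino acids, Slc25a13 and Slc25a29 fell in high smoke against air, and Slc25a38 rose in high smoke against low smoke. Slc25a13, citrin, exchanges aspartate for glutamate and feeds the malate-aspartate shuttle and the urea cycle. It lies at chr4:31608269-31730387 on the minus strand of rn6. Its normalized counts were 53.7 to 76.8 with a median of 70.8 in air, 51.2 to 79.8 with a median of 58.1 in low smoke, and 24.9 to 64.6 with a median of 42.1 in high smoke. In high smoke, 4 of the 7 libraries were below every air library, and the groups overlapped. Slc25a13 fell by 0.57 on the log2 scale (0.673-fold, standard error 0.16, adjusted p 0.0192). Leaving out any 1 library kept its call, and without high smoke replicates 1, 3 and 7 the log2 change was -0.30 with an adjusted p of 0.383. Its counts were whole reads in 21 of the 22 libraries. Against low smoke its log2 change was -0.46 with an adjusted p of 0.0749, and it passed without high smoke replicate 4 or 6, at 0.0433 and 0.0287.

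Slc25a29, a carrier of basic amino acids, lies at chr6:132735883-132747829 on the minus strand of rn6. Its normalized counts were 30.3 to 47.8 with a median of 35.2 in air, 17.0 to 45.4 with a median of 30.2 in low smoke, and 9.89 to 37.8 with a median of 20.6 in high smoke. In high smoke, 6 of the 7 libraries were below every air library. Slc25a29 fell by 0.79 (0.579-fold, standard error 0.23, adjusted p 0.0205), the largest log2 change of the 5 carriers that passed against air. Its call ended without high smoke replicate 7, at an adjusted p of 0.0546, and the log2 change was -0.48 without high smoke replicates 1, 3 and 7, with an adjusted p of 0.363. Against low smoke its log2 change was -0.50 with an adjusted p of 0.151, and 0.0491 without high smoke replicate 4. Its values are low, and log2(value + 1) understates changes of low values.

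Slc25a38 imports glycine for heme synthesis and is used most by cells that make hemoglobin. It lies at chr8:128790348-128802990 on the plus strand of rn6. Its normalized counts were 101.7 to 168.0 with a median of 139.3 in air, 109.9 to 134.4 with a median of 120.8 in low smoke, and 135.5 to 183.0 with a median of 152.9 in high smoke. Every high smoke library exceeded every low smoke library, while high smoke and air overlapped. Slc25a38 rose by 0.38 against low smoke (1.3-fold, standard error 0.10, adjusted p 0.0269), and against air its log2 change was 0.23 with an adjusted p of 0.106. Without low smoke replicate 2 or 4 its adjusted p was 0.051 and 0.0514, and without high smoke replicate 1, 3 or 7 it was 0.0776, 0.0622 and 0.0597. Without those 3 high smoke libraries together the log2 change was 0.37, close to the value with them, and the adjusted p was 0.636.

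Of the 7 tested markers of erythroid cells, 2 rose in high smoke against low smoke, where 3.8% of all genes rose. These were the globin genes Hbb and Hba-a2, by 0.56 and 0.51 on the log2 scale, with adjusted p-values of 0.0462 and 0.041. The other 5 did not pass, and 4 of them had values below 0: Hba-a1 at -0.29, Hba-a3 at -0.55, Slc4a1 at -0.23 and Alas2, the erythroid enzyme that uses glycine, at -0.06. The median of the 7 was -0.06, and none passed without high smoke replicates 1, 3 and 7. In high smoke against air the same 2 rose, by 0.91 and 0.69, with a median of 0.28 over the 7. The summed level of the list was 7125 to 14609 in high smoke, 4563 to 9182 in low smoke and 4843 to 7162 in air. Hbb alone averaged 6913 in high smoke, 4630 in low smoke and 3561 in air, against 9910, 7303 and 5979 for the sum. None of the 8 markers in the table was at 0 in every library of a group. The part of erythroid cells in the Slc25a38 result was not tested.

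Of the other amino acid carriers tested, Slc25a12, the aralar form of the aspartate and glutamate carrier, had -0.18 with an adjusted p of 0.11 in high smoke against air, and 0.044 without high smoke replicate 4. Slc25a22, a glutamate carrier, had a within-group SD of 0.908 on the log2 scale and whole reads in none of the 22 libraries. Slc25a44, which carries branched-chain amino acids, had -0.17 and an adjusted p of 0.501. Slc25a15, an ornithine carrier, had 0.06 and an adjusted p of 0.524, with 750.4 to 905.3 normalized counts in high smoke and 745 to 949.6 in air. The ornithine carrier Slc25a2, whose role is known from human, had 0.13 with an adjusted p of 0.578. The malate-aspartate shuttle enzymes gave 2 rises of 4 in high smoke against air, where 9.21% of all genes rose. Got2, the mitochondrial aspartate aminotransferase, rose by 0.41 with an adjusted p of 0.00462. Mdh1, the cytosolic malate dehydrogenase, rose by 0.53 with an adjusted p of 0.00313. Got2 and Mdh1 also rose against low smoke, by 0.38 and 0.45, where 3.8% of all genes rose. Neither passed without high smoke replicates 1, 3 and 7.

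**Figure D3:**
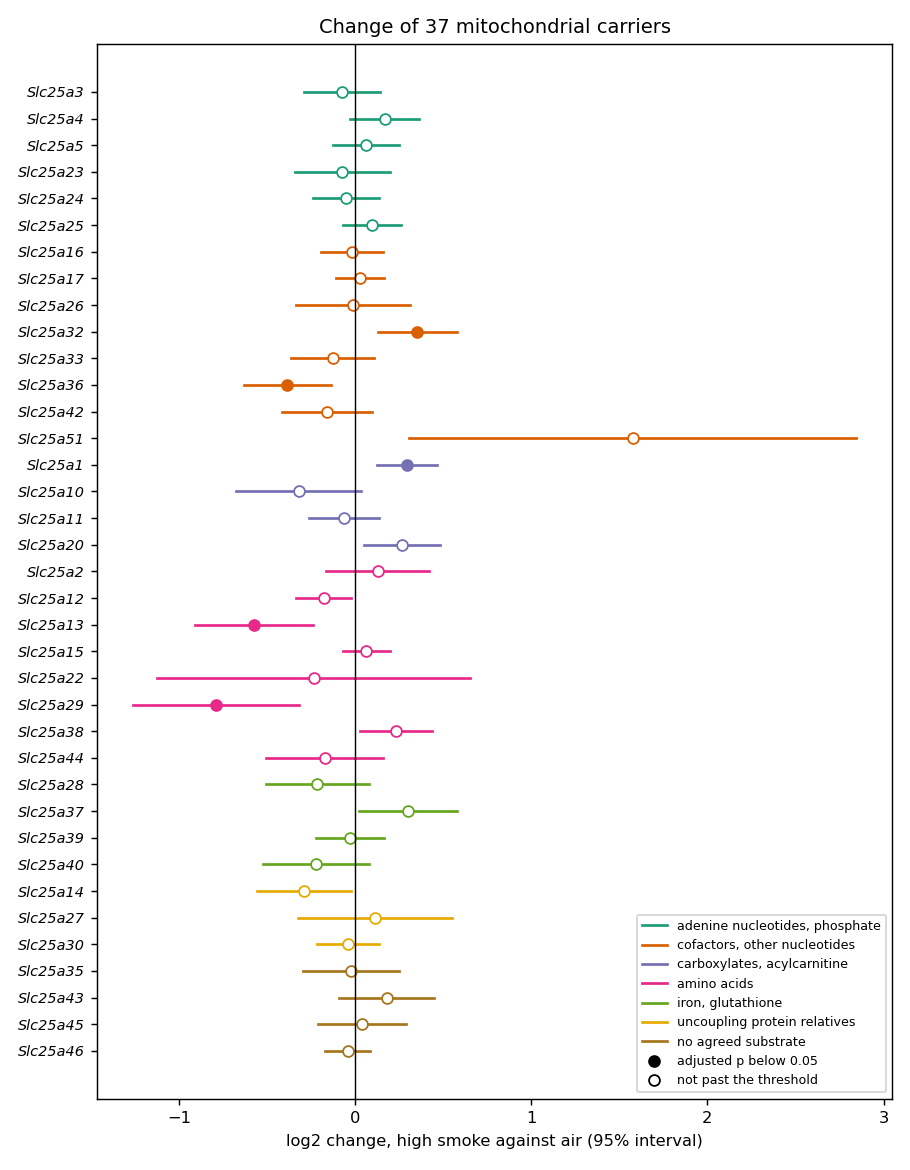
Log2 change of 37 of the 38 tested carriers in high smoke against air (x axis), with 95% intervals, grouped by role and named on the y axis. Filled points have an adjusted p below 0.05, and they are Slc25a1, Slc25a32, Slc25a13, Slc25a29 and Slc25a36.

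The carriers of adenine nucleotides and phosphate, which feed ATP synthesis, showed no call in any comparison with all libraries. None of the 6 tested passed in high smoke against air, where 16.3% of all genes did. None had an unadjusted p below 0.05, against 30.7% of all genes. At that level there was 1 in low smoke against air, against 6.4% of all genes. There was also 1 in high smoke against low smoke, against 25.6% of all genes. Slc25a5, an adenine nucleotide translocase, had 909 to 1441 normalized counts in high smoke and 995.4 to 1552 in air, with a log2 change of 0.06 and an adjusted p of 0.675. Against low smoke, Slc25a5 passed without high smoke replicate 6, at a log2 change of 0.25 and an adjusted p of 0.0412. Slc25a24, an ATP-magnesium and phosphate carrier, had 827.2 to 1182 in high smoke and 889 to 1250 in air, with -0.05 and 0.748. Slc25a4, the translocase of heart and muscle, had 0.17 with an adjusted p of 0.231. Slc25a3, the phosphate carrier, had -0.07 with an adjusted p of 0.678. Slc25a23 and Slc25a25, relatives of Slc25a24, had -0.07 and 0.10.

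Among carriers of iron and glutathione, none of the 4 tested passed in any comparison, and 16.3% of all genes passed in high smoke against air. At an unadjusted p below 0.05 that comparison had 1 of the 4, against 30.7% of all genes. That was Slc25a37, mitoferrin 1, the iron importer of cells that make hemoglobin, with a log2 change of 0.30 and an adjusted p of 0.126 against air. Slc25a37 had 191.4 and 174.6 in high smoke replicates 1 and 3, the only ones above the air maximum of 142.6. It passed without high smoke replicate 6, at an adjusted p of 0.0404. Leaving out high smoke replicates 1, 3 and 7 together gave a log2 change of 0.14 against air and an adjusted p of 0.695. Of the 7 tested erythroid markers, Hbb and Hba-a2 rose in the same comparison, as given above, where 9.21% of all genes rose. The other 5 did not pass, with log2 changes of -0.21 for Hba-a1 to 0.30 for Alas2. The part of erythroid cells in the Slc25a37 values was not tested. Slc25a28, mitoferrin 2, had -0.21 with an adjusted p of 0.319. The glutathione carriers Slc25a39 and Slc25a40 had -0.03 and -0.22.

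The relatives of uncoupling proteins and the carriers with no agreed substrate gave no call against air, and 16.3% of all genes passed in high smoke against air. Slc25a14, Slc25a27 and Slc25a30 had log2 changes of -0.29, 0.11 and -0.04 in that comparison. Among them Slc25a14 alone had an unadjusted p below 0.05, as 30.7% of all genes did, with an adjusted p of 0.128. Slc25a46, a protein of the outer membrane tied to mitochondrial shape, was the least variable carrier, with a within-group SD of 0.101 on the log2 scale. Its log2 change was -0.04 and its adjusted p 0.682. Slc25a16, tied to coenzyme A by work in yeast, had 806.1 to 1096 normalized counts in high smoke and 764.8 to 1073 in air, with -0.02 and an adjusted p of 0.919. Slc25a35, Slc25a43 and Slc25a45 had -0.02, 0.18 and 0.04 against air.

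Other cofactor carriers also missed the threshold in high smoke against air. Slc25a17, the peroxisomal carrier of coenzyme A and related cofactors, had a log2 change of 0.03, and Slc25a42, which carries coenzyme A into mitochondria, had -0.16. Slc25a26, the S-adenosylmethionine carrier, had -0.01 and Slc25a33, a second pyrimidine nucleotide carrier, had -0.13. Of the 33 carriers that did not pass, 30 had a 95% interval of the change within 1.5-fold in either direction, so a larger change was outside what these intervals allow. The median within-group SD was 0.23 on the log2 scale over the 38 carriers, against 0.23 over all genes tested.

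Low smoke gave no call against air for any carrier, and for 0% of all genes, in limma or in a rank-sum test. With 7 and 8 libraries the rank-sum p has a floor. After adjustment over all genes, that test could call a gene only if many genes had p-values near the floor. No carrier had groups that did not overlap, against 0.0416% of all genes. Without high smoke replicates 1, 3 and 7 in the shared model, low smoke against air again called no carrier, against 0.00695% of all genes. At an unadjusted p below 0.05 there were 5 carriers of 38 and 923 of all genes (6.4%). These 5 were Slc25a33 at -0.30, Slc25a45 at -0.31, Slc25a51 at 1.43, Slc25a3 at -0.22 and Slc25a27 at -0.42 on the log2 scale. Their adjusted p-values were 0.702, 0.702, 0.724, 0.769 and 0.771. Slc25a33 was below every air library in 5 of the 8 low smoke libraries. Of the 38 carriers, 26 (68.4%) had a log2 change below 0, with a median of -0.05, whereas 7051 of all 14414 genes did, with a median of 0.003. Of the 38, 34 had an interval within 1.5-fold.

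High smoke against low smoke gave 2 calls, which is 5.26% of the carriers, against 6.78% of all genes, and the same share against 3.8% of all genes that rose. No carrier fell, against 2.98% of all genes. The groups did not overlap for Slc25a32 and Slc25a38, which is again 5.26% of the carriers, against 0.694% of all genes. The calls fell to 0 without low smoke replicate 2, without high smoke replicate 1, 3 or 7, and without those 3 together. They fell to 1 without low smoke replicate 4, and numbered 5 without high smoke replicate 4 and 6 without high smoke replicate 6.

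Leaving out high smoke replicates 1, 3 and 7 together ended every call against air. These libraries were chosen by their scores in the same data. The 4 high smoke libraries left also give larger p-values for the same change. Lost calls alone therefore do not show that the changes sat in those libraries. Without high smoke replicates 1, 3 and 7, limma called 0 of the 38 carriers, against 0.861% of all genes. At an unadjusted p below 0.05 there was then 1 carrier (2.63%), against 13.8% of all genes, whereas with all libraries there were 11 carriers (28.9%), against 30.7% of all genes. At an adjusted p below 0.05, 5 carriers passed against air with all libraries. That number was 3 without air replicate 6, 3 without high smoke replicate 1 or 3, and 2 without high smoke replicate 7. A fit of only high smoke and air called 1 carrier, Slc25a29, and the rank-sum test called none.

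**Figure D4:**
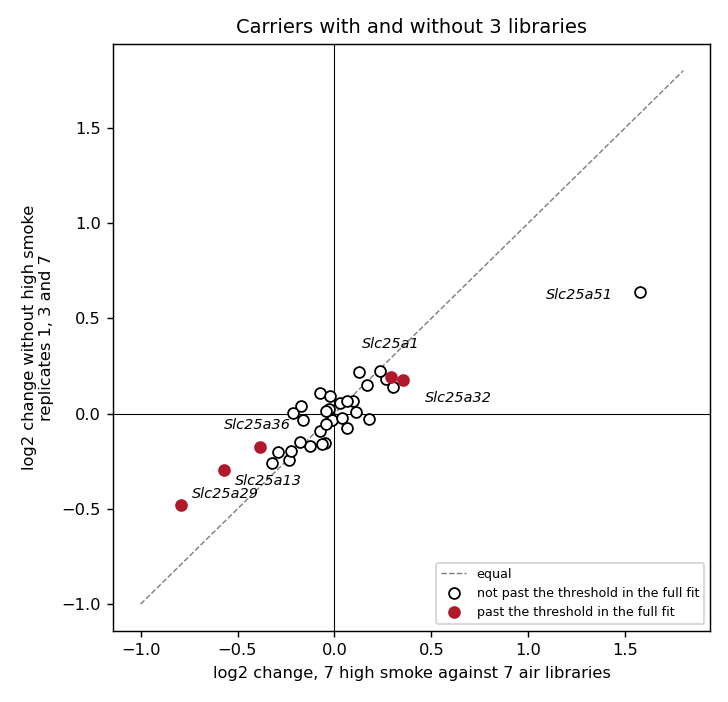
Log2 change of 37 of the 38 carriers in high smoke against air with all 7 high smoke libraries (x axis) and without high smoke replicates 1, 3 and 7 (y axis), with a dashed line of equality. Red points are the 5 carriers that passed in all libraries, and Slc25a29 had -0.79 with all libraries and -0.48 without the 3.

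Summed over the family, the levels of the 3 groups overlapped. Their summed normalized counts were 11114 to 12910 in high smoke, 10854 to 11666 in low smoke and 11010 to 12212 in air. That was 0.108% to 0.122% of all counts in high smoke, 0.111% to 0.12% in low smoke and 0.113% to 0.13% in air. When each library was scaled to the same total, Slc25a12, Slc25a13, Slc25a29 and Slc25a36 fell and none rose. All genes split into 894 rises and 1797 falls under that scaling, against 1327 and 1016 otherwise.

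**Figure D5:**
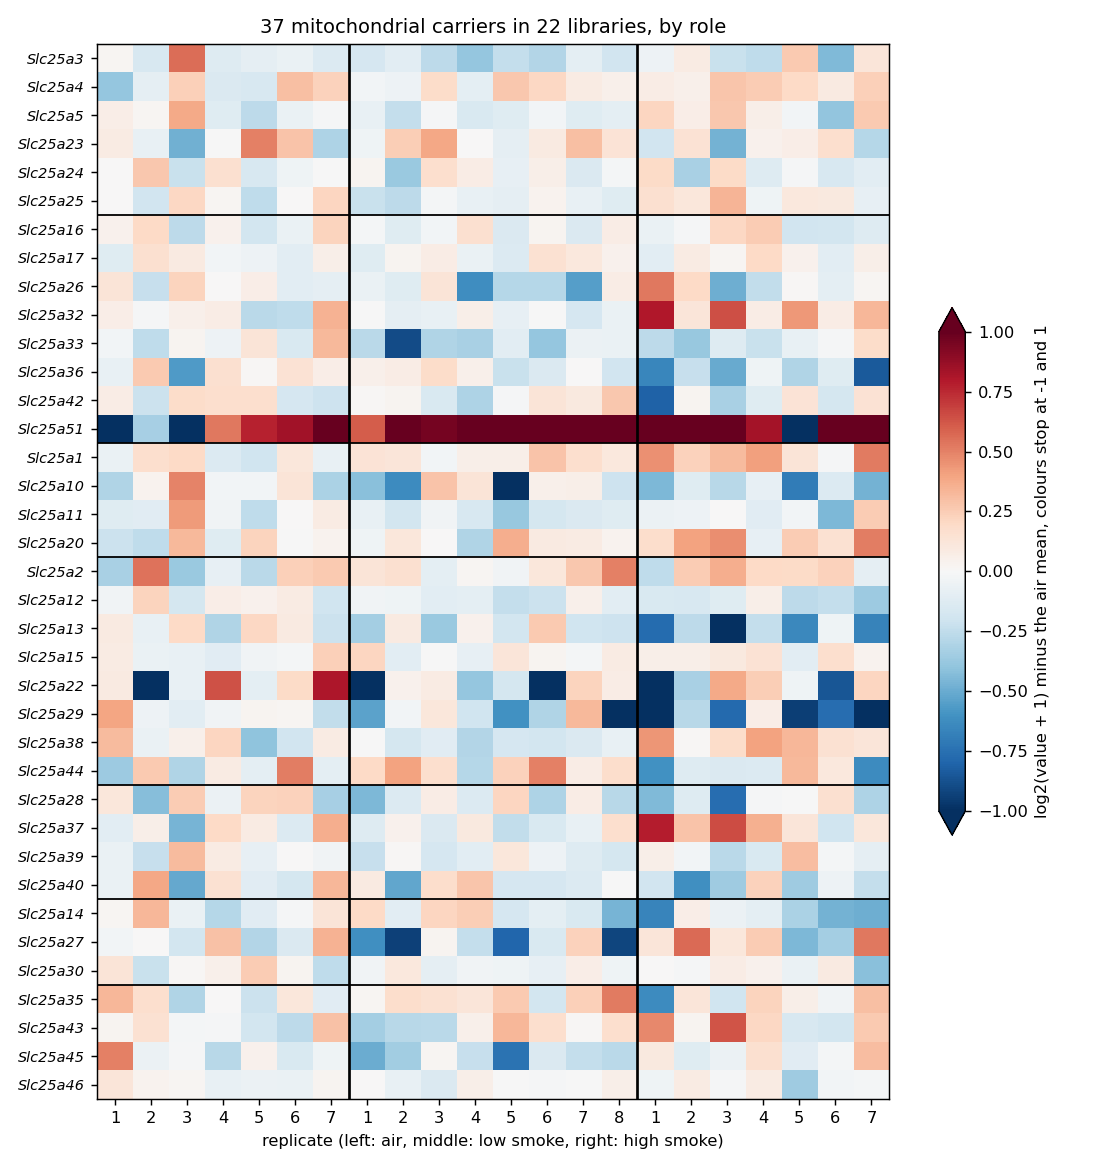
Log2(value + 1) of 37 of the 38 tested carriers, each minus its mean in air, by library (x axis: air, low smoke and high smoke replicates) and carrier (y axis, grouped by role). Colours stop at -1 and 1. Slc25a32 was high and Slc25a36 and Slc25a13 were low in high smoke replicates 1 and 3.

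Genes that work with the carriers were measured beside them in high smoke against air. Of the 21 other transporters of mitochondrial membranes, 4 rose and none fell, with a median of 0.16, whereas 9.21% of all genes rose and 7.05% fell, with a median of -0.002. Among them were Mpc2, a subunit of the pyruvate carrier, at 0.68, Smdt1, a regulator of the calcium uniporter, at 1.01, and Vdac3, an outer membrane channel, at 0.30. Of the 11 tested genes of the import machinery, Tomm22, a receptor of the outer membrane, rose by 0.51. Timm22, the channel that inserts carriers, rose by 0.29. The other 9 did not pass, and 6 of the 11 had a log2 change below 0, with a median of -0.01 over the 11. Of the 8 regulators of mitochondrial genes, Esrra, a nuclear receptor, fell by 0.56. Family members with other symbols, Ucp2, Ucp3, Mtch1 and Mtch2, gave no call of 4, against 16.3% of all genes, with a median of 0.29. An unadjusted p below 0.05 was found for 2 of the 4, against 30.7% of all genes. Leaving out high smoke replicates 1, 3 and 7 gave a median of 0.12 and none at that level. With all libraries the 5 enzymes of the carnitine shuttle also gave no call, and none had an unadjusted p below 0.05, against that 30.7%. Without high smoke replicates 1, 3 and 7 none of the genes in these lists passed.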

How the data were processed

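RNA was sequenced from lung pieces, of about 35 mg and with RNA integrity numbers from 9.0 upward, per the labels' protocols. Reads were aligned with STAR 2.7.3a to rn6 and normalized with DESeq2 in Partek, per the submitters' processing notes; the order of these steps is not given in the sources used here. The deposited table holds, per library, a signal that the authors made from gene counts divided by a size factor, as the steps between low values show. Of 24 rats, 8 per group, the labels' protocols report that 1 air sample was left out for quality, and 23 samples are labelled. Of these, 22 had a column; high smoke replicate 8, dropped for quality per its label, was not analysed here. Of values under 200 reads, 80.7% to 82.8% lay within 0.02 reads of a whole number, so a count model was not used, and no counting interval was computed.

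Values were transformed to log2(value + 1), and the 14414 genes with a mean of at least 10 were fitted with limma 3.58.1 in R 4.3.3 (intensity trend on, robust off), as a single model with 3 groups and two-sided tests. Genes were called at an adjusted p below 0.05. Fold changes on this scale understate the change of low genes. On simulated data of 14414 genes with 200 changed by 1.5-fold, 58% were recovered in high smoke against air. The simulation used independent normal noise with the same SD in all groups. It also changed a smaller share of genes than the 16.3% called in the data, so 58% is not the power reached here. The labels do not say that replicates came from separate litters or days. The carriers, role lists and marker lists were chosen with earlier results of these data known. Text names carriers that passed in any comparison, the 5 with the highest mean and, where a comparison called none, the 5 with the smallest p. Each library was left out in turn, and pseudocounts, filters, scalings and tests were varied. Values of 1 tested carrier and of 1 gene of the other lists are not reported here; both are included in the counts and medians.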

Additional observations from a re-analysis of the deposited data

Results flagged for a closer look

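Dixon's test at the 95% level was applied to each of 114 groups of 7 or 8 libraries of the 38 tested carriers, and 10 groups had a lowest or highest library far from the others; chance flags about 1 in 20 groups. High values were Slc25a3 in air replicate 3 at 1222 normalized counts, Slc25a29 in air replicate 1 at 47.8 and Slc25a45 in air replicate 1 at 128.5. Low values were Slc25a46 in high smoke replicate 5 at 662, Slc25a30 in high smoke replicate 7 at 162.3, Slc25a33 in low smoke replicate 2 at 131.7, Slc25a11 in low smoke replicate 5 at 264, Slc25a22 in low smoke replicate 6 at 8.1, Slc25a22 in air replicate 2 at 28.6 and Slc25a36 in air replicate 3 at 508.3. The causes were not tested.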

How the results depend on the processing

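No paired analysis was possible because no label ties libraries of different groups together, and replicate numbers here are only names. In high smoke against air, the 5 called carriers numbered 1 and the 2343 called genes 1351 in a fit of only the 2 groups, and 0 and 746 in the rank-sum test. Without high smoke replicates 1, 3 and 7 together they numbered 0 and 124. In high smoke against low smoke, 977 genes were called, and 183 in the rank-sum test; without the 3 libraries no carrier and 0 genes were called, and low smoke against air then gave 1 gene. The median log2 change of the carriers in high smoke against air was -0.10 when each library was scaled to the same total, against -0.08 for all genes. Leaving out 1 library at a time gave 2 to 7 carriers and 1453 to 2863 genes for high smoke over air. It gave 0 to 6 carriers and 29 to 1651 genes in high smoke against low smoke, and 0 carriers and 0 to 2 genes for low smoke over air. High smoke against low smoke gave 35, 51 and 29 genes without high smoke replicates 1, 3 and 7, and 1651 and 1575 without replicates 4 and 6. It gave 316, 296, 550 and 399 genes without low smoke replicates 1, 2, 3 and 4. High smoke against air gave 1453, 1461 and 1550 genes without high smoke replicates 1, 3 and 7. The causes were not tested. Depth limits carriers with low values most.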

Other observations

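The carriers not tested were Slc25a18, Slc25a21, Slc25a31, Slc25a34, Slc25a47 and Slc25a48, whose means lay between 0.662 and 5.93 normalized counts. Slc25a21 had 17 reads over the 7 high smoke libraries, 5 over the 8 low smoke libraries and 2 over the 7 air libraries, with at least 1 read in 7, 4 and 2 of them. When genes with a mean of at least 1 were tested, Slc25a21 had a log2 change of 1.34 in high smoke against air and an adjusted p of 0.0221. Slc25a34, by contrast, had 28 reads in high smoke, 63 in low smoke and 42 in air. Counts of this size are close to the level of single reads.

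Of the 44 carriers, 36 had whole reads in all 22 libraries, while Slc25a5, Slc25a15, Slc25a22, Slc25a36, Slc25a46 and Slc25a51 had them in at most 10. Slc25a6, a processed pseudogene on chromosome 18 that the choice of protein-coding genes left out, had 7.05 to 13.0 normalized counts in high smoke and 10.8 to 15.9 in air. Cardiac muscle markers gave no call of 8 in high smoke against air, where 16.3% of all genes were called. Their summed levels were 166 to 1276 in high smoke and 121.5 to 1476 in air. The standard error of their log2 changes reached 1.56, for Myh6, so the lack of a call leaves large changes possible. The part of cardiac muscle in the Slc25a4 values was not tested.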
